A study of Plutella xylostella with 6 samples.

Results

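The genes described here are those whose deposited description names a part of the sperm axoneme or the testis. They were chosen from the description of each gene alone, by the words axonemal, tektin, radial spoke, outer dense fiber, testis-specific, spermatogenesis, sperm, cilia- and flagella, or coiled-coil domain-containing protein 39 or 40, leaving out spermine and spermidine enzymes. This gave 100 of the 21946 rows of the table. The libraries hold poly(A) RNA from the whole body of larvae of the diamondback moth, Plutella xylostella, at instar 2. There were 3 DMNT libraries, from larvae treated for 12 hr with DMNT, a dimethyl-nonatriene that plants give off as a volatile homoterpene, and 3 Control libraries. Larvae in the bioassays of the study ate forage with DMNT or with its solvent, paraffin oil, and the dose and vehicle for these libraries are not given separately in the sources used here. The strain, the sex of the larvae and the number pooled in a library are not given there either.

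The axoneme is the core of a motile cilium or flagellum, a ring of microtubule doublets moved by dynein motors. Heavy chains of axonemal dynein carry the motor, intermediate and light chains belong to the same complexes, tektins lie within the doublets, and radial spokes reach from the doublets to the central pair. Cilia- and flagella-associated proteins are named for their place in this structure and have many roles. In insects the motile axoneme is known above all from the sperm tail, and in Drosophila a related axoneme is also found in the ciliated neurons of chordotonal organs, which sense stretch and sound. Caterpillars carry gonads from hatching, and in moths spermatocytes and sperm form during larval life. In whole-body RNA, fewer cells of a type and less RNA per cell cannot be told apart.

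None of the 56 members that could be tested was called at the thresholds of the study, which ask for an unadjusted p under 0.05 and a log2 fold change of 1 or more in either direction. The table as a whole had 0.367% of tested genes called higher and 0.503% called lower in DMNT. The test was the quasi-likelihood test of edgeR, and its Benjamini-Hochberg adjusted p was 0.9999 for every tested member, while 0.0113% of all tested genes had an adjusted p under 0.05. Most members leaned one way without reaching the threshold. The log2 fold change, DMNT over Control, was above 0 for 46 of 56 members, against 49.4% of all tested genes, and its median was 0.20 against -0.00 for all tested genes. Taking the unadjusted p alone, 7 members were under 0.05 with higher values in DMNT and 0 with lower values, where 1.75% and 1.68% of all tested genes were. The values of the DMNT libraries lay wholly above those of the Control libraries for 10 of 56 members and wholly below for 0, against 4.25% and 4.12% of all tested genes. These values moved with single libraries. Without DMNT replicate 1 the median was 0.09, with 37 of 56 above 0, and without Control replicate 2 it was 0.09, with 40 above 0, while without Control replicate 3 it was 0.27, with 39 above 0. The 7 members under an unadjusted p of 0.05 stayed 7 without Control replicate 1. They became 1 without DMNT replicate 1, 4 without DMNT replicate 2, 4 without DMNT replicate 3, 1 without Control replicate 2 and 3 without Control replicate 3. The share of all tested genes under that p and higher in DMNT moved too, from 0.98% without DMNT replicate 1 to 2.37% without DMNT replicate 3. On the deposited FPKM, limma gave 2 such members on log2(FPKM + 0.1) and 1 on log2(FPKM + 1), against 1.53% and 1.55% of all tested genes.

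The libraries held 39853422 to 54671573 counts in DMNT and 49553028 to 56381123 in Control. At these depths 3 counts, the most that a count of 0 allows, equal 0.0523 to 0.0782 CPM, the counts scaled to library size by the trimmed mean of M-values, for counting error only. The common biological coefficient of variation was 29.0%. The labels give no batch, and nothing in them says that the libraries of a group came from separate cultures, so the p-values cover the spread among these libraries alone, which may be technical.

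The members were transcribed at low levels in the whole larva. Levels of different genes are compared here by FPKM, the authors' measure scaled by exon length and mapped reads. The median over the 100 members of the mean FPKM of the 6 libraries was 0.68, against 3.52 over all rows, and 20 members reached a mean of 5. A mean FPKM of at least 0.5 was required for testing, which 44 members did not reach. Counts were nonetheless above 3 in every library for 79 members, and 2 members, a dynein heavy chain 10 (LOC105396899) and a CFAP44-like gene (LOC105396696), had a count of 0 in all libraries. Levels differed between roles. The dynein heavy chains, the largest proteins of the set, were the lowest role by median, at 0.114 FPKM, while testis-specific proteins had a median of 5.61, spermatogenesis proteins of 5.10 and outer dense fiber proteins of 4.65 FPKM.

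**Figure D1:**
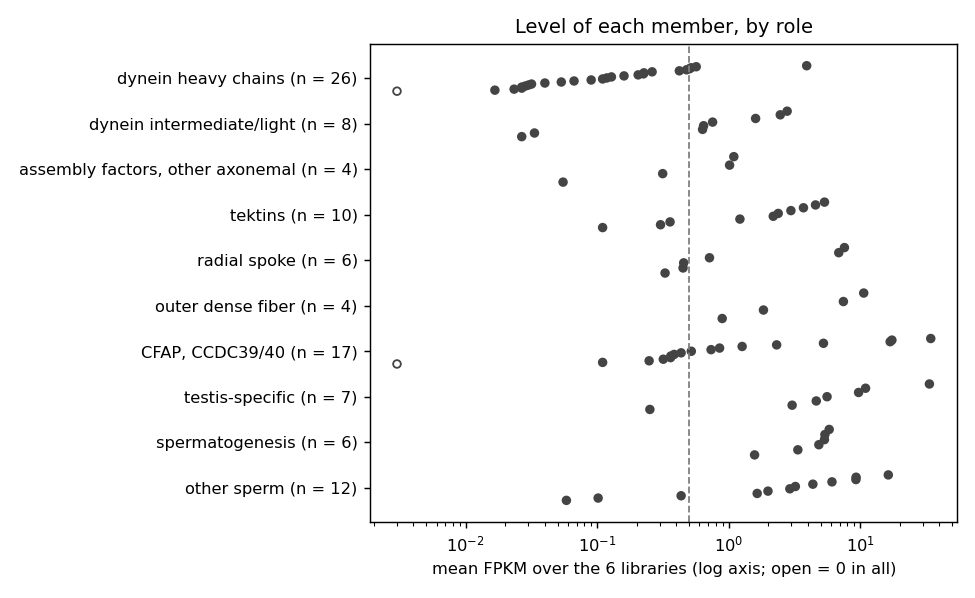
Mean FPKM over the 6 libraries for each of the 100 members (points, log axis), by role from top to bottom, with the number of rows of each role. The dashed line is the minimum of 0.5 FPKM for testing, and the 2 open points at the left edge are members at 0 in all libraries. Dynein heavy chains lie mostly left of the line, and the 2 highest members, CFAP58-like at 34.5 and testis-specific kinase 2-like at 33.7 FPKM, lie at the right.

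Of the axonemal dynein heavy chains, 4 of 26 rows were tested, and 3 of these had a log2 fold change above 0. The one at the highest level was a dynein heavy chain 7-like gene (LOC105391575), with a mean of 3.92 FPKM, while the next heavy chain, a dynein heavy chain 3-like gene (LOC105398512), had 0.567 FPKM. LOC105391575 had 40.02, 47.6 and 25.5 CPM in DMNT, against 45.5, 41.0 and 28.7 CPM in Control. The groups overlapped, and replicate 3 was the lowest of either group. Its log2 fold change was -0.03 ± 0.26 (standard error, as for every fold change given so).

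The other tested heavy chains stood at lower levels and leaned towards DMNT. The dynein heavy chain 1-like gene (LOC105385858), in other species a motor of the inner arm, had 9.32, 5.94 and 9.54 CPM in DMNT, against 5.79, 4.59 and 4.97 CPM in Control. The groups did not overlap, but DMNT replicate 2 was close to Control replicate 1. The log2 fold change was 0.69 ± 0.23, with an unadjusted p of 0.0168, under the fold required. The dynein heavy chain 3-like gene LOC105398512 had 4.40, 2.38 and 5.32 CPM in DMNT, against 2.51, 1.74 and 2.32 CPM in Control. DMNT replicate 2 lay inside the Control range, and the log2 fold change was 0.88 ± 0.33 with an unadjusted p of 0.0288. This gene was called without DMNT replicate 2, at a log2 fold change of 1.15. Without DMNT replicate 3 the log2 fold change was 0.63, the lowest of the fits that leave out 1 library. Without Control replicate 2 it was 0.73, and neither of these was called. A further dynein heavy chain 7-like gene (LOC105386945) had overlapping groups and a log2 fold change of 0.26 ± 0.27.

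Rows of the heavy chains are of unequal length, and many are pieces. The exon length implied by the ratio of count to FPKM was 9.74 to 14.7 kb for 8 rows and 0.931 to 6.55 kb for 17, with the remaining row at 0. The annotation of a later NCBI assembly, ilPluXylo3.1, used for names and neighbours only, still lists 7 of the 8 long rows and 3 of the 17 short ones. The exception among the long rows is LOC105391575, the most abundant. Among the 8 long rows the level ran from 0.110 FPKM, for dynein heavy chain 8 (LOC105392727), to 0.518 FPKM, for LOC105386945, once LOC105391575 is set aside. Dynein heavy chain 5 (LOC105381155), in other species a motor of the outer arm, had 0.128 FPKM, with 2.45, 2.14 and 1.38 CPM in DMNT and 1.88, 1.57 and 1.64 CPM in Control. Several short rows were at or near 0. LOC105381617 had 10 counts in DMNT replicate 2 and 0 elsewhere, and LOC105396897 had 10 counts in Control replicate 2 and 0 elsewhere.

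For the smaller dynein subunits, 6 of 8 rows were tested and all 6 had a log2 fold change above 0, with a median of 0.21. A dynein intermediate chain 2-like gene (LOC105398355) had 5.97, 6.45 and 5.68 CPM in DMNT, against 4.59, 3.63 and 4.77 CPM in Control. The groups did not overlap, and Control replicate 2 was the lowest library. The log2 fold change came to 0.48 ± 0.19, with an unadjusted p of 0.0353. A gene of the same description (LOC105396579) had only 19, 21 and 13 counts in DMNT, against 17, 0 and 13 counts in Control. Its log2 fold change of 1.03 ± 0.95 was not called, at an unadjusted p of 0.310, and it rested on the 0 in Control replicate 2. Dynein light chain 4 (LOC105391030), at 2.79 FPKM the most abundant of these subunits, had a log2 fold change of 0.06 ± 0.22. Dynein assembly factors, which build the arms in the cytoplasm, gave 2 tested rows. Both carry the description of assembly factor 5 (LOC105394281 and LOC105380235), and their log2 fold changes were -0.02 ± 0.26 and 0.19 ± 0.22.

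All 7 tested tektins of 10 rows had a log2 fold change above 0, with a median of 0.41. That median was 0.24 without DMNT replicate 1, 0.26 without Control replicate 2 and 0.65 without Control replicate 1, and 5 of 7 were above 0 without Control replicate 3. A tektin-2-like gene (LOC105395374) had 2.21, 2.27 and 2.27 CPM in DMNT, against 1.73, 1.08 and 1.44 CPM in Control. Its DMNT libraries were nearly equal and all above Control, and the log2 fold change was 0.67 ± 0.27 with an unadjusted p of 0.0406. The tektin-4-like gene LOC105387675 had 7.15, 7.84 and 8.61 CPM in DMNT, against 6.38, 3.12 and 6.06 CPM in Control. Control replicate 2 was far under the other Control libraries, and the log2 fold change was 0.60 ± 0.28 with an unadjusted p of 0.0633. The most abundant tektin, the tektin-4-like gene LOC105389121 at 5.36 FPKM, had 12.9, 8.54 and 9.60 CPM in DMNT and 9.78, 4.72 and 9.80 CPM in Control. Here the groups overlapped, and again Control replicate 2 stood lowest. Summed over the 10 tektin rows, CPM were 36.7, 30.7 and 31.4 in DMNT, against 30.3, 17.1 and 26.3 in Control.

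The outer dense fiber proteins, named for the fibres that stiffen the mammalian sperm tail, gave 4 tested rows of 4. All had a log2 fold change above 0, and none reached an unadjusted p of 0.05. In all 4, Control replicate 2 was the lowest library and DMNT replicate 1 the highest. The most abundant, an outer dense fiber protein 3-like protein 2 (LOC105398752), had 13.3, 10.9 and 8.01 CPM in DMNT, against 13.1, 6.97 and 9.27 CPM in Control, a log2 fold change of 0.13 ± 0.28. A row of the same description at 0.893 FPKM (LOC105389312) had 2.02, 1.19 and 0.887 CPM in DMNT, against 0.715, 0.510 and 0.955 CPM in Control. Its log2 fold change was 0.91 ± 0.43, with an unadjusted p of 0.0690, and without DMNT replicate 3 it was called at 1.14. Over the fits that leave out 1 library it ran from 0.52, without DMNT replicate 1, to 1.15, without Control replicate 3. It was 0.70 without Control replicate 2.

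Radial spoke proteins differed little between the groups where they were tested. The 2 rows of radial spoke head 1 homolog, LOC105384690 and LOC105396047, stood at 7.60 and 6.88 FPKM. LOC105384690 had 10.6, 8.85 and 11.3 CPM in DMNT, against 10.4, 9.14 and 9.96 CPM in Control. Its log2 fold change was 0.06 ± 0.17, and that of LOC105396047 was 0.11 ± 0.17. Neither gene had Control replicate 2 far from the rest.

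Of the cilia- and flagella-associated proteins and the rulers CCDC39 and CCDC40, which in other species space the dyneins along the doublet, 9 of 17 rows were tested and all 9 had a log2 fold change above 0, with a median of 0.20. The CFAP58-like gene LOC105388864 was the most abundant of all members, at 34.5 FPKM. It had 190.6, 141.8 and 134.4 CPM in DMNT, against 159.8, 155.7 and 144.3 CPM in Control. DMNT replicate 1 was the highest library, the other DMNT libraries were the lowest, and the log2 fold change was 0.02 ± 0.16. The 2 rows of CFAP20, a protein of the inner junction of doublets, followed at 17.5 FPKM (LOC105396390) and 16.9 FPKM (LOC105390537), with log2 fold changes of 0.17 ± 0.17 and 0.26 ± 0.17.

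Low in abundance but apart between the groups was a CFAP44-like gene (LOC105388702, 0.520 FPKM), whose product in other species tethers an inner-arm dynein. It had 4.62, 4.13 and 4.54 CPM in DMNT, against 3.40, 2.21 and 2.34 CPM in Control. The groups did not overlap, and the log2 fold change was 0.74 ± 0.24 with an unadjusted p of 0.0137, the smallest among the tested members. The CFAP45-like gene LOC105386802 also had groups that did not overlap, with 2.28, 1.79 and 1.56 CPM in DMNT and 1.45, 0.907 and 1.40 CPM in Control. The log2 fold change came to 0.58 ± 0.31, with an unadjusted p of 0.0995. CCDC39-like (LOC105390356) and CCDC40-like (LOC105395058) stood at 0.385 and 0.248 FPKM and were not tested.

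**Figure D2:**
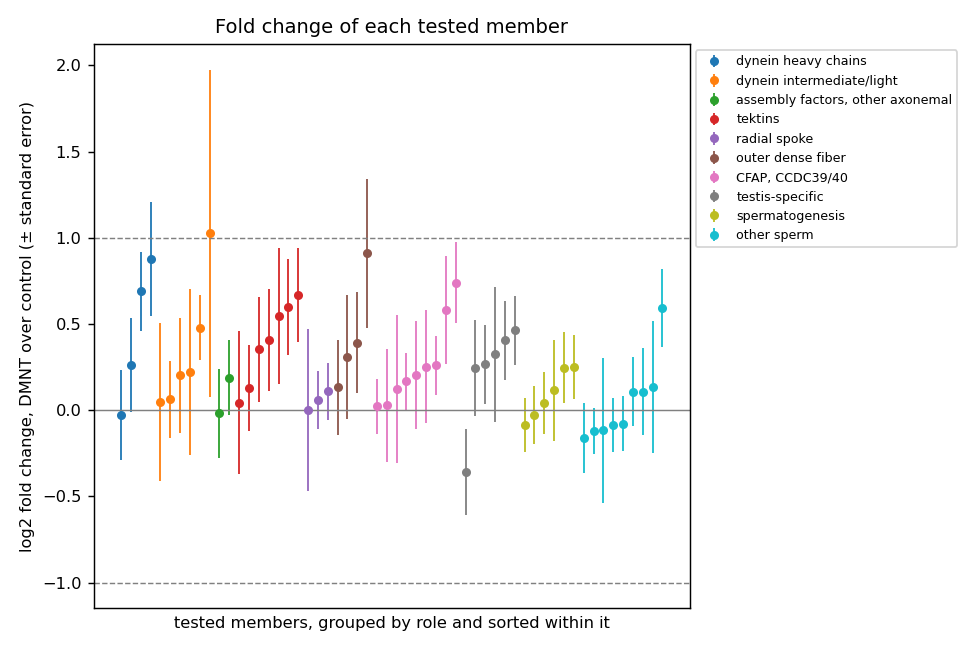
Log2 fold change, DMNT over Control, of each of the 56 tested members (points) with its standard error (bars), grouped by role and sorted within it. Dashed lines mark the fold required for a call. Of 56 points 46 lie above 0, and the 1 point above the upper line, dynein intermediate chain 2-like at 1.03 ± 0.95, was not called.

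Among the testis-specific proteins, the 4 serine/threonine kinases of the TSSK family, which in mammals act in late spermatids, had one pattern over the libraries. The most abundant, testis-specific kinase 2-like (LOC105382409, 33.7 FPKM), had 71.3, 51.5 and 49.6 CPM in DMNT, against 49.1, 33.98 and 41.8 CPM in Control. The groups did not overlap, DMNT replicate 1 was the highest library and Control replicate 2 the lowest. The log2 fold change was 0.46 ± 0.20, with an unadjusted p of 0.0483. Testis-specific kinase 3 (LOC105391432, 11.0 FPKM) had 42.4, 28.7 and 29.5 CPM in DMNT and 31.9, 20.6 and 31.0 CPM in Control, a log2 fold change of 0.27 ± 0.23 with overlapping groups. In all 4 kinases DMNT replicate 1 was the highest library and Control replicate 2 the lowest. Their median log2 fold change was 0.30, and it rested on these libraries. Without DMNT replicate 1 the median was 0.03, with 2 of 4 above 0, and without Control replicate 2 it was 0.07. Leaving out any of the other libraries, 1 at a time, gave 0.41 to 0.49. Summed over the 4, CPM were 161.3, 113.3 and 104.7 in DMNT, against 117.0, 74.5 and 106.1 in Control. LOC105398015 and LOC105398017, of this family, are neighbours in the newer annotation.

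The remaining testis-specific rows did not share one pattern. A bromodomain testis-specific protein-like gene (LOC105383004), named for a mammalian chromatin reader of spermatids, had 15.4, 15.8 and 14.0 CPM in DMNT, against 12.5, 7.76 and 13.8 CPM in Control. The difference on the log2 scale was 0.40 ± 0.23, with an unadjusted p of 0.116. The dual specificity testis-specific kinase (LOC105392776) ran the other way, with 4.53, 6.62 and 6.55 CPM in DMNT, against 7.05, 9.73 and 5.88 CPM in Control. It had its highest value in Control replicate 2, and its log2 fold change of -0.36 ± 0.25 was the lowest of the tested members. That family is not confined to the testis in other animals, and the gene was named after its values were seen.

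Genes named for spermatogenesis had small differences between the groups. The 6 rows were all tested, with log2 fold changes from -0.09 to 0.25 and a median of 0.08. The 2 rows of spermatogenesis-defective protein 39 homolog, LOC105398826 and LOC105391582, a factor of vesicle traffic in many tissues, both had a log2 fold change of 0.25, with standard errors of 0.18 and 0.21. The other sperm proteins are the remaining members with the word sperm in their description, which does not place their expression in the testis. They gave 9 tested rows of 12, of which 4 had a log2 fold change above 0, with a median of -0.08. The most abundant, sperm-associated antigen 7 homolog (LOC105394917, 16.4 FPKM), had 42.1, 34.8 and 40.7 CPM in DMNT, against 43.5, 41.3 and 43.1 CPM in Control, a log2 fold change of -0.12 ± 0.13. A motile sperm domain-containing protein 2-like gene (LOC105390767) had a log2 fold change of -0.16 ± 0.20. The exception was the sperm-tail PG-rich repeat-containing protein 2-like gene (LOC105387095), with 9.45, 6.76 and 7.48 CPM in DMNT, against 6.42, 4.16 and 5.14 CPM in Control. Its groups did not overlap, and the log2 fold change was 0.59 ± 0.23 with an unadjusted p of 0.0306.

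**Figure D3:**
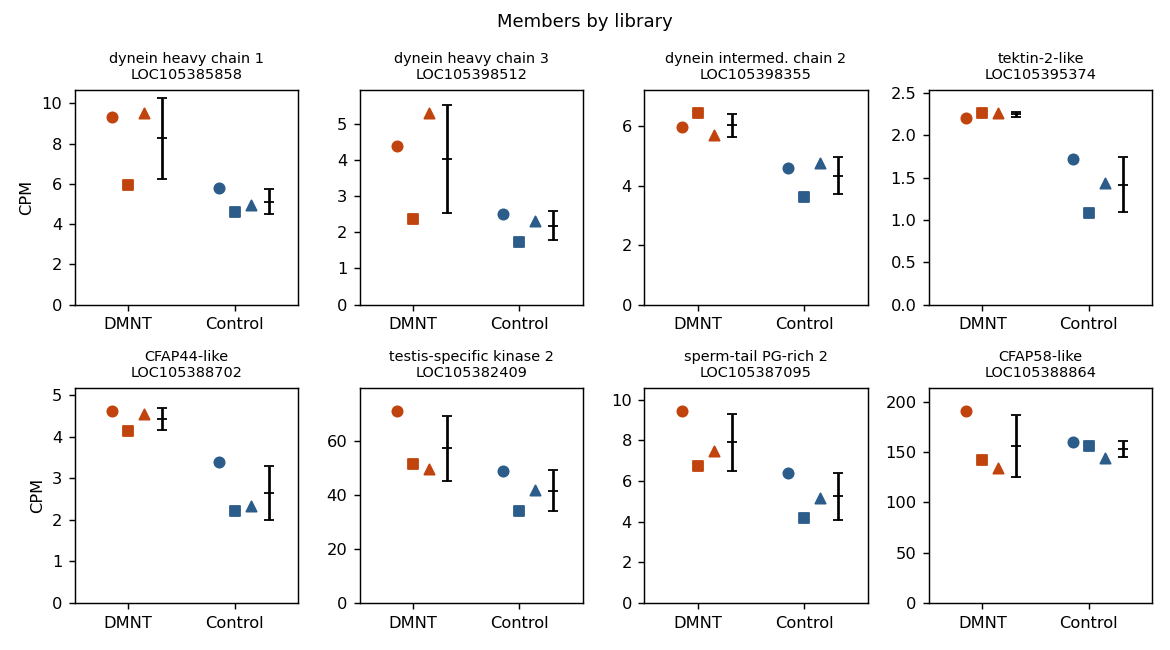
CPM (linear axis from 0) of 8 members in each library, DMNT left and Control right. Circles, squares and triangles are replicates 1, 2 and 3, and the bar beside each group is the mean ± SD. Control replicate 2 is the lowest library in all panels but that of CFAP58-like, where both groups lie between 134.4 and 190.6 CPM. Members chosen for lower values in Control will more often have a Control library lowest, so this pattern is partly set by the choice.

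Among members under the minimum of 0.5 FPKM, 3 were called higher when the filter was left off and 98 members were fitted, against 0.431% of all fitted genes, and 0 were called lower, against 0.682%. Their adjusted p in that edgeR fit was 0.9999, while 0.0186% of all fitted genes had one under 0.05. A dynein heavy chain 3-like gene (LOC105394842) had 41, 36 and 40 counts in DMNT, against 14, 20 and 19 counts in Control. All DMNT counts were above all Control counts, and the log2 fold change was 1.37 ± 0.48 with an unadjusted p of 0.0201. A radial spoke head 10 homolog B-like gene (LOC105384092) had 72, 46 and 49 counts in DMNT and 29, 16 and 26 counts in Control, a log2 fold change of 1.47 ± 0.44 with an unadjusted p of 0.00871. A bromodomain testis-specific protein-like gene (LOC105396890) had 12, 11 and 13 counts in DMNT and 0 in every Control library. Set against 3 counts over the Control group it was 13.9-fold higher in DMNT, with no allowance for error in the DMNT counts. Its unadjusted p in that fit was 0.00793. The other row of its description, LOC105383004, was detected in all libraries, and reads can be split between such rows.

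The libraries of a group were not alike in these genes. For each tested member the log2 of CPM plus 0.05 was taken relative to its mean over the 6 libraries. The median over the members was 0.26, 0.01 and 0.03 in DMNT, against 0.06, -0.39 and -0.09 in Control, while for all tested genes it lay between -0.00 and 0.02 in every library. Control replicate 2 was the lowest library for 34 of 56 members (60.7%), against 19.7% of all tested genes. DMNT replicate 1 was the highest for 27 of 56 (48.2%), against 4073 of the 17709 tested genes. The axoneme roles run from the heavy chains to the cilia- and flagella-associated proteins, with the assembly factors among them. Over their 35 tested members, DMNT replicate 1 was highest for 19 and Control replicate 2 lowest for 25. Of these 35, 33 had a log2 fold change above 0, with a median of 0.22. The median was 0.15 with 26 above 0 without DMNT replicate 1, 0.36 without DMNT replicate 2, 0.11 without Control replicate 2, 0.40 without Control replicate 1, and 0.28 with 27 above 0 without Control replicate 3. Among the 6 tested testis-specific proteins DMNT replicate 1 was highest for 4 and Control replicate 2 lowest for 5. In the spermatogenesis proteins and the other sperm proteins, which are grouped by name alone, Control replicate 2 was lowest for 2 of 6 and 2 of 9. What sets these libraries apart was not tested.

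**Figure D4:**
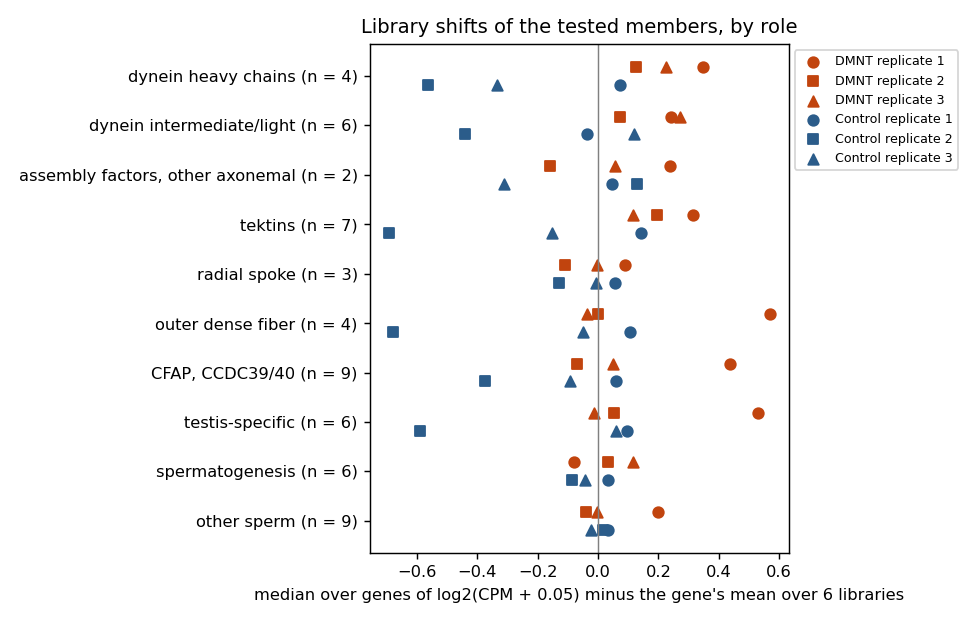
Median over the tested members of each role of log2(CPM + 0.05) relative to the gene's mean over the 6 libraries (horizontal axis, log2 units), with DMNT (orange) drawn above Control (blue) in each row and symbols for the replicates. Control replicate 2 (blue square) lies far left for tektins, outer dense fiber and testis-specific proteins, and near 0 for spermatogenesis and other sperm proteins. Roles follow the descriptions alone, and expression in the testis was not tested.

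A list of axoneme genes whose descriptions lack the words of the rule was read in the same way. It held ciliary dynein chains, dynein regulatory complex proteins, PIH1 assembly factors, ropporin and others, with 46 rows and 28 tested. None was called, 24 of 28 had a log2 fold change above 0, with a median of 0.36, and 3 were under an unadjusted p of 0.05 with higher values in DMNT and 1 with lower. Control replicate 2 was lowest for 17 of 28 and DMNT replicate 1 highest for 17. The most abundant, calcyphosin-like protein LOC105381826, had 34.1 FPKM and a log2 fold change of 0.04 ± 0.15, and the next, calcyphosin-like protein LOC105389222, had 17.4 FPKM and 0.06 ± 0.19. Calcyphosin is not restricted to axonemes. Nearest to the threshold was a leucine-rich repeat-containing protein 23-like gene (LOC105394134), a spoke protein in mammals, which was singled out after its values were seen. It had 7.32, 2.85 and 4.22 CPM in DMNT, against 2.93, 1.45 and 2.81 CPM in Control. At a log2 fold change of 0.9996 ± 0.40 and an unadjusted p of 0.0387, it missed a call by its fold.

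Other lists, drawn by words in the descriptions, were set beside the members. A gene in them need not be confined to the tissue or process of its name, so they do not settle which tissue these transcripts mark. Germ cell genes, shared by testis and ovary, gave 14 tested of 15 rows with a median log2 fold change of -0.03. Aubergine-like (LOC105397264, 41.2 FPKM) and vasa (LOC105398159, 35.1 FPKM), of the piRNA machinery and the germ plasm, stood above every member of the set, with log2 fold changes of 0.05 ± 0.14 and 0.23 ± 0.15. Boule-like (LOC105392373), required for meiosis in Drosophila males, had 14.8, 23.01 and 19.3 CPM in DMNT, against 17.3, 21.2 and 20.5 CPM in Control. The groups overlapped, and its log2 fold change was -0.05 ± 0.20. In this list 1 gene was called lower, piwi-like protein 1 (LOC105391798), a nuclear piRNA effector in Drosophila, with 5.11, 7.20 and 2.79 CPM in DMNT, against 7.36, 14.6 and 11.1 CPM in Control. Over all tested genes 0.503% were called lower. The log2 fold change of piwi-like protein 1 came to -1.12 ± 0.37, with an unadjusted p of 0.0165 and an adjusted p of 0.9999 in the edgeR test. The call was lost without Control replicate 2 (-0.88, unadjusted p 0.0574) and without DMNT replicate 3 (-0.84), and on log2(FPKM + 1) in limma it was -0.60. An undescribed locus of the same symbol had a log2 fold change of -0.31 ± 0.31. Germ cell genes had a median of 0.32 in Control replicate 2 on the same relative log2 scale, the opposite sign to the members in that library.

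Meiosis genes, taken by name, gave 11 tested of 17 rows, none called, with a median log2 fold change of 0.09. DMNT replicate 1 was highest for 6 of 11 and Control replicate 2 lowest for 4. The 2 most abundant were the MNS1-like gene LOC105386605, which is also counted in the axoneme list, at 8.82 FPKM and a log2 fold change of 0.42 ± 0.27, and a homolog of required for meiotic nuclear division protein 1 (LOC105392790), at 4.41 FPKM and -0.08 ± 0.18. A SPO11-like gene (LOC105388923), which starts recombination in meiosis, had 0.180 FPKM. Testis-expressed genes outside the rule, also taken by name, gave 4 tested of 6 rows, none called, with a median of 0.17. They were led by the testis-expressed sequence 10 homolog (LOC105388856) at 11.1 FPKM and testis-expressed sequence 2 (LOC105381184) at 1.56 FPKM.

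Genes of the egg were low. Of 22 rows for vitellogenin, chorion and ovary, 4 were tested, none was called and the median log2 fold change was 0.11. The 2 vitellogenin-like genes stood at 0.265 FPKM (LOC105382014) and 0.187 FPKM (LOC105386528). The highest of the list was a chorion peroxidase-like gene (LOC105385773), at 2.53 FPKM. It was followed at 1.90 FPKM by the kinase Lok (LOC105381643), which is ovarian-specific by its description only.

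Genes of sensory cilia were measured at low levels too. Intraflagellar transport and other ciliogenesis genes, which in Drosophila build the cilia of sensory neurons and are dispensable for the sperm tail, had a median of 0.204 FPKM over 46 rows. Of these 14 were tested, none was called, and 9 had a log2 fold change above 0, with a median of 0.31. DMNT replicate 1 was highest for 6 of 14 and Control replicate 2 lowest for 6. Tectonic-1-like (LOC105386145) had 12.3 FPKM and a log2 fold change of -0.02 ± 0.21, and the Bardet-Biedl syndrome 2 homolog (LOC105394978) 4.08 FPKM and -0.13 ± 0.17. Channels of the transient receptor potential family, some of which serve chordotonal organs, gave 6 tested of 16 rows, none called, with a median of 0.00, led by pyrexia-like (LOC105384592) at 14.9 FPKM and trpm-like (LOC105380372) at 7.66 FPKM. Among these channels Control replicate 2 was lowest for 3 of 6 and DMNT replicate 1 highest for 0. Tubulins, used in every cell, gave 18 tested of 18 rows, none called, with a median of 0.14. DMNT replicate 1 was highest for 10 of 18 and Control replicate 2 lowest for 3. Their leading genes, tubulin beta-1 chain (LOC105380966) and tubulin alpha chain (LOC105384350), had log2 fold changes of 0.13 ± 0.22 and 0.23 ± 0.24. From whole-body RNA the share of testis and of sensory neurons in the members' counts was not tested.

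**Figure D5:**
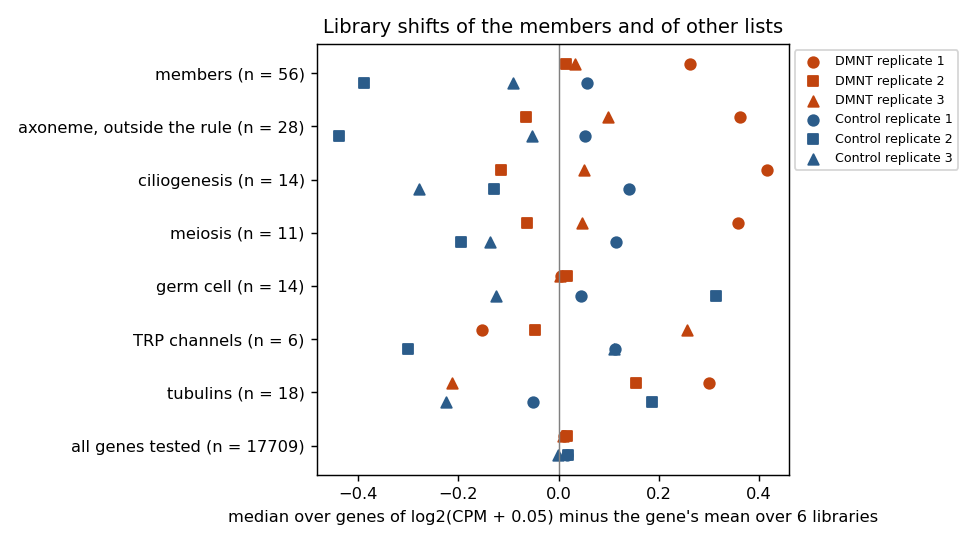
The same relative log2 measure for the members, 6 other lists and all genes tested, with the number of tested genes in each list. Control replicate 2 (blue square) lies left of 0 for the members (-0.39) and for axoneme genes outside the rule (-0.44). It also lies left of 0 for the channels (-0.30), meiosis genes (-0.19) and ciliogenesis genes (-0.13). For germ cell genes (0.32) and tubulins (0.19) it lies right of 0, and all libraries lie near 0 for all genes.

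Of the 100 rows, 57 occur in the newer annotation, and the 37 tested among these had a median log2 fold change of 0.20, with 32 above 0. Rows often repeat a name: 22 descriptions are carried by 63 rows, and for 17 of these descriptions a single row remains in the newer annotation, so reads of one gene can be spread over several rows here. A further 20 rows carry the symbol of a member but no description, as assembled loci beside 16 of the members, and the rule does not take them. Of these 19 were tested, none was called, 13 had a log2 fold change above 0 and the median was 0.07. They did not always follow the described row: the locus beside the CFAP44-like gene LOC105388702 had -0.25 ± 0.52, the 2 beside the dynein heavy chain 1-like gene LOC105385858 had 0.33 ± 0.25 and -0.21 ± 0.24, and the one beside LOC105394842, at 19.0 FPKM, had 0.04 ± 0.16. Gene Ontology terms naming a cilium, flagellum, axoneme, sperm or dynein stood beside 47 members, and 14 had no term. A KEGG pathway was lacking for 48 members. The pathway of Huntington's disease, which in KEGG holds axonemal dyneins, was given to 29 members, 23 of them heavy chains, and to 89 rows in all. The members lie on 21 chromosomes of the newer assembly, with at most 7 on one, and 2 pairs of members are direct neighbours.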

How the data were processed

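Whole-body RNA of 3 DMNT and 3 Control libraries was grouped by sample title. Per the paper's methods the authors used cutadapt for read cleaning, Hisat for alignment against the NCBI reference, and StringTie for assembly and quantification. The authors deposited read counts per gene, not normalized, and FPKM, scaled by exon length and mapped reads. The libraries mark the strand by dUTP, but the sources used here do not say whether strand was used in quantification. Reads may therefore be shared by overlapping or antisense genes.

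At a minimum mean FPKM of 0.5, 17709 of 21946 rows were tested by edgeR 4.0.16 (TMM, glmQLFit, glmQLFTest) in R 4.3.3, with no covariate. Standard errors were taken as the absolute fold change (log2) over the square root of F. P-values were adjusted by Benjamini-Hochberg over all tested genes. limma 3.58.1 and DESeq2 1.42.0 were alternatives. The test was tried on simulated data. No libraries were copies of each other (mean chi-square per gene 51.7 to 144.5 between pairs).

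Named genes are members past the thresholds, the 2 of highest mean FPKM and the 2 of smallest p in each role, the 5 of highest mean FPKM in all, and in other lists the genes past the thresholds and the 2 of highest mean FPKM. Others were chosen after their values were seen. Members and lists were chosen with earlier results of these data known. After their matches were seen, 3 lists were narrowed: axoneme genes outside the rule (68 rows to 46, without intraflagellar transport), testis-expressed genes (31 to 6, without ejaculatory bulb proteins) and channels (27 to 16, without inactive enzymes). The axoneme and meiosis lists share 3 rows. No sequence is shown.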

Additional observations from a re-analysis of the deposited data

How the results depend on the processing

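No alternative called a member lower or gave one an adjusted p under 0.05. Of the alternatives, 3 members were called higher without the filter, where 73 of 98 had a log2 fold change above 0, and 28 of 36 did at a minimum of 2 FPKM, as fewer were fitted. Leaving out 1 library at a time gave 0 to 1 members called higher, 37 to 48 of 56 above 0 and a median of 0.09 to 0.27. The median was 0.19 with median-ratio scaling, 0.18 with quantile normalization in limma, 0.19 with DESeq2, 0.24 without the filter, 0.13 at 2 FPKM, 0.13 on log2(FPKM + 0.1) and 0.08 on log2(FPKM + 1). On log2(FPKM + 0.1) and log2(FPKM + 1) the median of all tested genes was itself -0.05 and -0.04, with 40.6% above 0 in both. In the main fit it was -0.00, with 49.4% above 0. Members under an unadjusted p of 0.05 numbered 7, and 10 without the filter, 4 at 2 FPKM, 2 on log2(FPKM + 0.1), 1 on log2(FPKM + 1) and 1 to 7 leaving out 1 library. Of 398 values for 29 named members under 14 alternatives, 396 kept their side of the thresholds and 2 passed them. No member was called in the main fit, so this count says little about how far fold changes moved. For the tektin-4-like gene LOC105387675 the log2 fold change was 0.60 in the main fit. It was 0.33 without Control replicate 2 and 0.78 without Control replicate 1. Signs turned in 18 of the 398 values, in 7 genes, none called. Members in the newer annotation alone, an alternative chosen after seeing the data, gave 0 called.

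Libraries of the same replicate number deviated together only weakly (correlations 0.071, 0.056 and 0.098). Libraries of different numbers were not compared in this way, so the check cannot decide whether the numbers pair the libraries. Blocking on the replicate number gave a median of 0.18, with 44 of 56 above 0 and 0 called.

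Below 0.5 FPKM a member can rest on a few counts in a library.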
